A study of Mus musculus with 3 samples.

Results

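The 10 genes studied here belong to the response to low oxygen and to sugar metabolism, and were followed through the cell populations of the growing bone end: *Hif1a*, *Epas1*, *Egln1*, *Egln3*, *Slc2a1*, *Aldoa*, *Pgk1*, *Ldha*, *Pdk1* and *Bnip3*. They were taken by symbol from the 55422 features of the count matrices, and all 10 symbols were found. *Aldoa* stood in 2 rows, and its second row (ENSMUSG00000114515.2) held 0 UMIs in every population sum, so the 11 rows gave 10 measured genes. A UMI is a molecular tag that counts 1 captured transcript.

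Cells sense oxygen through the hypoxia-inducible factors (HIFs). The α subunits HIF-1α (*Hif1a*) and HIF-2α (*Epas1*) are made continuously, and with oxygen present the prolyl hydroxylases PHD2 (*Egln1*) and PHD3 (*Egln3*) mark them for destruction through the von Hippel-Lindau protein. When oxygen is low the α subunits last, pair with ARNT and switch on genes for glucose uptake (*Slc2a1*) and glycolysis (*Aldoa*, *Pgk1*, *Ldha*). They also switch on genes for the brake on pyruvate oxidation in mitochondria (*Pdk1*) and for the removal of mitochondria (*Bnip3*). Growth plate cartilage has no vessels and its chondrocytes are known for needing HIF-1α to survive, whereas the metaphysis below it is densely vascularised. Since HIF activity is set mainly at the protein level, transcript counts of the α subunits do not measure it.

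The data were 3 droplet libraries (10x Genomics, 3′ chemistry) from untreated male mice aged 3 weeks. The 2 metaphyseal libraries (replicates 1 and 2) came from C57BL/6 mice, from metaphyseal cells of long bones depleted of lineage-positive, CD45+ and CD117+ cells, so haematopoietic cells were largely removed before capture. The *Pdgfra-GFP* library came from mice heterozygous for the *Pdgfra-H2B-GFP* knock-in, which places a nuclear GFP under the *Pdgfra* promoter, and held sorted GFP+ cells of metaphysis and epiphysis. It is 1 library, and its sort favours mesenchymal cells. The number of animals behind each library is not given in the sources used here. The p-values thus measure only how differences between populations vary among these 3 preparations. The labels call the first 2 libraries mesenchymal stromal cells, but by the markers used here EC-like cells were their most numerous population. The libraries held 25243314, 22082735 and 91747759 UMIs, and 2389, 2011 and 11319 cells passed the filters on cells. Metaphyseal replicates 1 and 2 shared 0 cell barcodes, and the *Pdgfra-GFP* library shared 9 and 10 with them.

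Cells were assigned to populations by marker genes, none of which is among the 10 genes or the pathway lists used further on. Of 15719 cells, 13435 fell into 6 populations that are compared here: chondrocyte-like (37, 36 and 1625 cells in metaphyseal replicate 1, metaphyseal replicate 2 and *Pdgfra-GFP*, the order kept throughout), osteoblast-like (211, 187 and 1857), septoclast-like or SC-like (14, 10 and 215), metaphyseal mesenchymal stromal cell-like or mpMSC-like (76, 76 and 1514), diaphyseal mesenchymal stromal cell-like or dpMSC-like (718, 652 and 3884) and endothelial cell-like or EC-like cells (1122, 890 and 311). Septoclasts are the perivascular cells that resorb cartilage at the chondro-osseous border. Each population carried its own markers, as the assignment requires, so the sums of these markers are no independent sign of identity. The 10 chondrocyte markers summed to between 83870 and 112110 counts-per-million (CPM) in chondrocyte-like cells and to at most 1378 elsewhere. The 8 endothelial markers summed to between 7132 and 7960 in EC-like cells and to at most 167 elsewhere. The stromal populations were less cleanly separated. In mpMSC-like cells the mpMSC markers summed to between 3458 and 5074. The dpMSC markers reached 3032 to 4439 there and the osteoblast markers 2243 to 3179, against 24432 to 29918 in dpMSC-like and 37639 to 210402 in osteoblast-like cells. The SC-like sums of the metaphyseal libraries rest on 139540 and 90357 UMIs, the smallest of all.

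All levels are in CPM, the UMIs of a gene relative to a population's summed UMIs in 1 library, scaled by trimmed mean of M values (TMM). A level is thus a share of a population's transcripts and not an amount per cell. As 3′ tags, these levels are compared between populations and not between genes. Differences are log2 fold changes with their standard error (SE) from edgeR's quasi-likelihood test with the library as a block, and p-values were adjusted by Benjamini-Hochberg over all genes tested. Means are given with the SD over the 3 libraries.

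The 250 bases before the start site were examined for the core of the hypoxia response element, ACGTG or GCGTG, read on both strands (CACGT and CACGC on the printed strand). RefSeq start sites (GRCm38.p6) were at hand for 9 of the 10 genes, with no entry for *Epas1*. In 9 of these 9 genes at least 1 window held a match, and in 6 of 9 at least 2, against 41.5% and 18.7% of the 27025 genes with an entry. The core holds a CG pair, and the shares of all genes were not matched for base composition. Member windows with a match held 50.8% to 86.0% G and C, those without 38.4% and 50.4%. The part of base composition was not tested. Several of the 9 genes are known HIF targets, so the count is no independent sign. The window of *Hif1a* held 3 matches. The windows of 3 members that were highest in chondrocyte-like cells are shown because they held between 2 and 5 matches each and stand for the glycolytic and mitochondrial sides of the set. Matches are in capitals. The palindrome CACGTG counts as 2 overlapping matches. The *Pgk1* window lies at chrX:106186850-106187099 on the plus strand, the *Ldha* window at chr7:46845554-46845803 on the plus strand within the annotated gene but outside its exons, and the *Bnip3* window at chr7:138909507-138909756 on the minus strand, with its last 13 bases inside an annotated exon. A match is a description of letters and not evidence of binding.
Pgk1: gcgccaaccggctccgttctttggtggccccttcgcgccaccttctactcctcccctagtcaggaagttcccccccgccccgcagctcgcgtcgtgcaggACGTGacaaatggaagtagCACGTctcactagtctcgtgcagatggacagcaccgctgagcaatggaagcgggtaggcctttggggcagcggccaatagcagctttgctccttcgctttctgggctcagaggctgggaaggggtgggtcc
Ldha: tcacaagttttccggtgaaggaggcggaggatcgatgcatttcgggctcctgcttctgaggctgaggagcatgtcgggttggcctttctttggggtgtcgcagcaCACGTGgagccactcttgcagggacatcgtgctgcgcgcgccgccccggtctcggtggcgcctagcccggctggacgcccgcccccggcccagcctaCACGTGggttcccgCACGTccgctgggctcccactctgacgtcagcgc
Bnip3: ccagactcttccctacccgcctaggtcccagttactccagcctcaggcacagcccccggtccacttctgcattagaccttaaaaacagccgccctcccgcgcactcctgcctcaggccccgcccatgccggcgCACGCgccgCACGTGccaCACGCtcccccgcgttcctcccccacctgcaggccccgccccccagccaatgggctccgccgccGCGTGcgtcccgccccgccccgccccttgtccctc

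For the orders of levels given next, neighbouring populations were compared in the same edgeR fit. Of the 13895 genes tested, 54.4% differed between chondrocyte-like and dpMSC-like cells, 55.3% between chondrocyte-like and EC-like, 30.3% between chondrocyte-like and SC-like, 58.3% between osteoblast-like and dpMSC-like, 61.6% between osteoblast-like and EC-like, 30.1% between osteoblast-like and SC-like, 22.3% between SC-like and dpMSC-like, 31.3% between SC-like and EC-like and 55.4% between dpMSC-like and EC-like cells. A difference between such populations is therefore common among all genes. Scaling by total UMIs in place of TMM, an alternative added for these orders after the data were seen, lowered osteoblast-like levels against the others, with the median of all genes at -0.78 against SC-like and -0.92 against dpMSC-like cells.

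The α subunits were distributed differently. *Hif1a* (ENSMUSG00000021109.13, chr12:73901375-73947530, plus strand) was highest in chondrocyte-like cells, at 216, 223 and 241 CPM (227 ± 12.9, SD, n = 3). No library of another population exceeded 126. EC-like cells followed at 112, 126 and 83.4, which was 1.16 ± 0.16 (SE) lower on the log2 scale than in chondrocyte-like cells (edgeR adjusted p = 3.91e-06). The remaining populations averaged between 58.5 in SC-like and 84.1 in mpMSC-like cells, and no neighbours among EC-like, mpMSC-like, dpMSC-like, osteoblast-like and SC-like cells passed the test with TMM. With total UMIs dpMSC-like cells were above osteoblast-like cells (0.88, adjusted p = 5.08e-05).

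*Epas1* (ENSMUSG00000024140.10, chr17:86753700-86833410, plus strand), known for its role in endothelium, was highest in vessels and marrow stroma. EC-like cells held 360, 358 and 475 CPM (398 ± 66.8, SD, n = 3) and dpMSC-like cells 319, 343 and 370 (344 ± 25.3). These 2 overlapped and did not pass the test (log2 difference 0.20 ± 0.15 SE, edgeR adjusted p = 0.263). SC-like cells held 111, 79.4 and 107, below every dpMSC-like sum (1.79 ± 0.19 lower, edgeR adjusted p = 8.24e-07), and mpMSC-like cells 88.7, 91.3 and 91.4. Chondrocyte-like cells held 20.5, 29.6 and 22.9 and osteoblast-like cells 10.9, 18.2 and 21.0, so both skeletal matrix-forming populations lay below every other population. The populations with most *Hif1a* and most *Epas1* were therefore not the same, and over the 18 sums the log2 levels of the 2 genes had a Pearson r of -0.30, a description in which points share libraries and depth.

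The prolyl hydroxylases gave no clear order. *Egln1* (ENSMUSG00000031987.6, chr8:124908587-124949324, minus strand) averaged between 33.9 in SC-like and 59.6 CPM in osteoblast-like cells. Its spread within a population came from the libraries: in osteoblast-like cells it was at 77.5, 74.4 and 26.7, and in chondrocyte-like cells at 61.5, 73.9 and 29.5. The populations overlapped, and none of the 5 pairs of neighbours in its order passed the test. *Egln3* (ENSMUSG00000035105.5, chr12:54178981-54203860, minus strand) was barely detected. Its levels ran from 0 to 7.94 CPM, and its largest sum was 46 UMIs, in chondrocyte-like cells of the *Pdgfra-GFP* library. It was at 0 UMIs in chondrocyte-like and osteoblast-like cells of metaphyseal replicate 1, which allows up to 5.59 and 0.934 CPM (3 UMIs), and in mpMSC-like cells of metaphyseal replicate 2, which allows up to 3.65. These limits cover counting error only.

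*Slc2a1* (ENSMUSG00000028645.11, chr4:119108711-119137983, plus strand), which encodes the glucose transporter GLUT1, was ordered as follows. Chondrocyte-like cells held 63.3, 50.3 and 61.8 CPM (58.5 ± 7.12, SD, n = 3), EC-like cells 24.9, 22.0 and 18.5, and dpMSC-like cells 8.64, 10.2 and 16.9. These 3 populations did not overlap with each other or with mpMSC-like cells at 5.83, 4.87 and 4.02, and each step passed the test (log2 differences of 1.31 ± 0.21, 0.91 ± 0.20 and 1.63 ± 0.29 SE, edgeR adjusted p = 2.69e-05, 6.88e-04 and 2.30e-04). Without *Pdgfra-GFP* the last of these steps did not pass (0.80, adjusted p = 0.243). Osteoblast-like cells were lowest at 2.18, 1.86 and 3.10. SC-like cells held 1, 0 and 6 UMIs (5.86, 0 and 3.24 CPM), and the 0 allows up to 23.8 CPM at that depth. The order of mpMSC-like, SC-like and osteoblast-like cells was not separated. Barcodes with at most 100 UMIs, which mostly hold free RNA, carried 15.4, 16.9 and 17.3 *Slc2a1* CPM before TMM scaling, above the level in osteoblast-like, mpMSC-like and SC-like cells. The metaphyseal dpMSC-like levels, 8.64 and 10.2, lay below free RNA too, and the *Pdgfra-GFP* level of 16.9 was close to it.

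The 3 glycolytic enzymes were also led by chondrocyte-like cells. *Pgk1* (ENSMUSG00000062070.12, chrX:106187100-106203699, plus strand), phosphoglycerate kinase, was at 488, 487 and 580 CPM there (518, n = 3) and at most 135 in any other sum. Osteoblast-like cells were next at 135, 122 and 135, lower by 1.98 ± 0.14 (SE) on the log2 scale (edgeR adjusted p = 1.14e-09). With total UMIs they lay below EC-like cells, the next in the order (-0.50, adjusted p = 0.00831). In the TMM order dpMSC-like cells were last at 51.3, 42.7 and 70.1. The lactate dehydrogenase gene *Ldha* (ENSMUSG00000063229.15, chr7:46841475-46855627, plus strand) was at 782, 729 and 1586 in chondrocyte-like cells and at 486, 417 and 604 in osteoblast-like cells. The *Pdgfra-GFP* library was high in both, and within each library chondrocyte-like cells stood above osteoblast-like cells. SC-like cells averaged 358, lower than osteoblast-like cells (0.54 ± 0.19 SE, edgeR adjusted p = 0.0388) with overlapping ranges. The direction of that step turned with total UMIs (-0.32, adjusted p = 0.176), and the step did not pass without the library block (0.44, adjusted p = 0.548) or without metaphyseal replicate 1 or 2 (adjusted p = 0.175 and 0.319). mpMSC-like, EC-like and dpMSC-like cells followed at 333, 281 and 232, with no neighbours from SC-like cells on past the test. *Aldoa* (ENSMUSG00000030695.16, chr7:126795234-126800751, minus strand), aldolase A, was at 417, 389 and 732 in chondrocyte-like cells. Its next populations were dpMSC-like cells at 275, 252 and 432 and osteoblast-like cells at 294, 278 and 312, whose ranges overlapped. These 2 were not separated with TMM (0.06, adjusted p = 0.822), but with total UMIs dpMSC-like cells were higher (0.90, adjusted p = 3.21e-04). The step from chondrocyte-like to dpMSC-like cells passed with TMM (0.67 ± 0.19 SE, edgeR adjusted p = 0.00630), with overlapping ranges. That step did not pass with total UMIs (0.21, adjusted p = 0.370), without the library block (0.69, adjusted p = 0.171) or without metaphyseal replicate 1 (0.70, adjusted p = 0.0536). These enzymes have near-identical processed copies elsewhere in the mouse genome, so the share of their reads lost or gained through the copies is unknown.

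*Pdk1* differed from the enzymes, whereas *Bnip3* was, like them, highest in chondrocyte-like cells. *Pdk1* (ENSMUSG00000006494.11, chr2:71873224-71903858, plus strand), pyruvate dehydrogenase kinase 1, was present at 2 levels. EC-like cells held 32.7, 37.0 and 25.5 CPM, chondrocyte-like cells 11.2, 38.5 and 36.9 and osteoblast-like cells 23.7, 24.9 and 15.8. All 9 sums of SC-like, mpMSC-like and dpMSC-like cells were lower, between 2.66 and 8.17. Free RNA carried 22.3, 22.4 and 12.6 *Pdk1* CPM before TMM scaling, above all these 9 sums. The osteoblast-like levels were close to free RNA, and the TMM factors of osteoblast-like sums (0.716, 0.698 and 0.557) raise them. The step from osteoblast-like to SC-like cells passed the test (log2 difference 2.12 ± 0.51 SE, edgeR adjusted p = 0.00309), but not with total UMIs (1.26, adjusted p = 0.0606) or without *Pdgfra-GFP* (1.82, adjusted p = 0.216). The low chondrocyte-like value of metaphyseal replicate 1 rests on 6 UMIs. *Bnip3* (ENSMUSG00000078566.8, chr7:138890836-138909519, minus strand), a receptor for the removal of mitochondria by autophagy, was at 67.0, 69.5 and 150 in chondrocyte-like cells. dpMSC-like cells held 16.1, 21.8 and 32.5, lower by 2.01 ± 0.15 (edgeR adjusted p = 8.54e-10), and no sum of the other 4 populations exceeded 20.6.

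**Figure D1:**
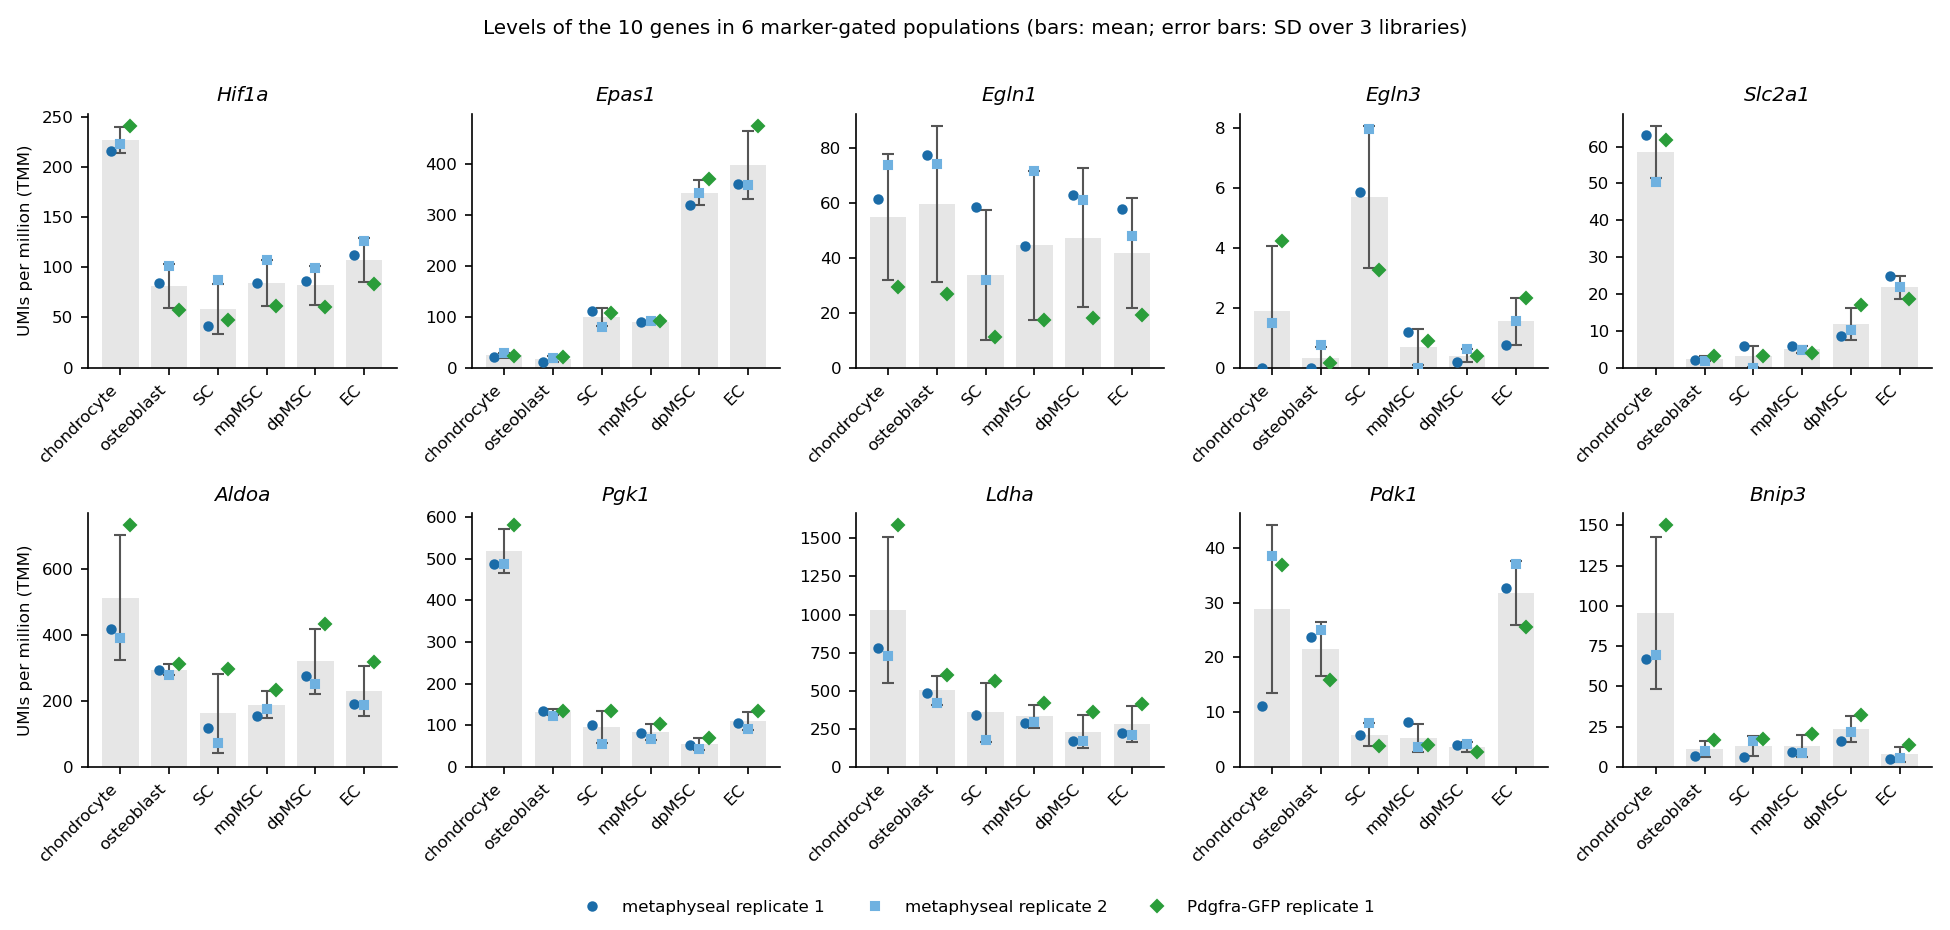
Levels of the 10 genes (CPM, TMM-scaled, y axis) in the 6 marker-gated populations (x axis). Bars show the mean, error bars the SD over 3 libraries, and points the libraries. Chondrocyte-like cells held 216 to 241 CPM of *Hif1a* and 488, 487 and 580 of *Pgk1*, above every other sum, whereas *Epas1* was highest in EC-like and dpMSC-like cells.

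The first comparison set cartilage cells against bone-forming cells. Most cells of both came from the *Pdgfra-GFP* library, which held metaphysis and epiphysis, and the markers do not give a cell's position. Of the 10 genes, 8 were higher in chondrocyte-like than in osteoblast-like cells and 0 lower, where 18.3% and 20.8% of the 13895 genes tested were higher and lower. *Slc2a1* was 22.3-fold higher (log2 4.48 ± 0.26 SE, edgeR adjusted p = 5.87e-11) and *Bnip3* 8.66-fold (3.12 ± 0.17, edgeR adjusted p = 1.92e-11). *Pgk1* was 3.94-fold and *Hif1a* 3.00-fold higher (1.58 ± 0.16, edgeR adjusted p = 1.42e-07), each in 3 of 3 libraries. The differences of *Ldha* (0.96 ± 0.18, edgeR adjusted p = 2.09e-04) and *Aldoa* (0.73 ± 0.19, edgeR adjusted p = 0.00542) were smaller. *Egln1* (0.01 ± 0.17, edgeR adjusted p = 0.979) and *Epas1* (0.43 ± 0.21, edgeR adjusted p = 0.107) did not pass. The median over the 10 genes was 1.27, beside -0.04 over all genes.

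Calls of the low genes depended on single libraries. *Egln3* passed (3.68 ± 0.68 SE, edgeR adjusted p = 1.92e-04) with a higher level in 2 of 3 libraries, and not without the *Pdgfra-GFP* library (1.14, adjusted p = 0.740). *Pdk1* passed (0.77 ± 0.24, edgeR adjusted p = 0.0138) though its difference was -1.06 in metaphyseal replicate 1 and 0.62 and 1.21 in the others. It did not pass without metaphyseal replicate 2 (0.79, adjusted p = 0.0949) or without *Pdgfra-GFP* (0.16, adjusted p = 0.769). *Epas1* passed as higher without *Pdgfra-GFP* (0.89, adjusted p = 0.0481) and with total UMIs in place of TMM (adjusted p = 0.00321). Without the library block, *Pdk1*, *Ldha* and *Aldoa* did not pass (adjusted p = 0.248, 0.0820 and 0.15). Chondrocyte-like cells also held the largest sum of the 6 genes of handling stress (*Fos*, *Jun*, *Egr1*, *Atf3*, *Hspa1a*, *Hspa1b*), 10582, 9646 and 3894 CPM against 6242, 5572 and 1768 in osteoblast-like cells, and its part in the differences was not tested.

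Against mpMSC-like cells, 9 of the 10 genes were higher in chondrocyte-like cells and 1 lower, where 19.5% and 19.7% of all genes were. *Slc2a1* led (3.84 ± 0.29 SE, edgeR adjusted p = 1.80e-09), followed by *Pdk1* (2.85 ± 0.32), *Bnip3* (2.85 ± 0.18) and *Pgk1* (2.64 ± 0.16). *Ldha* (1.57 ± 0.18), *Hif1a* (1.54 ± 0.17) and *Aldoa* (1.42 ± 0.20) were 2.96-, 2.92- and 2.68-fold higher. *Epas1* was the gene that was lower (-1.97 ± 0.20, edgeR adjusted p = 1.48e-07), so the 2 α subunits moved in opposite directions. *Egln1* (0.49 ± 0.19, edgeR adjusted p = 0.0418) did not pass without metaphyseal replicate 1 or without *Pdgfra-GFP* (adjusted p = 0.119 and 0.469). *Egln3* (2.02 ± 0.60, edgeR adjusted p = 0.0115) did not without *Pdgfra-GFP* (0.936), and neither passed without the library block (0.802 and 0.101). The median over the 10 genes was 1.79, beside -0.02 over all genes. The genes of handling stress summed to 613 to 1577 CPM in mpMSC-like and 3894 to 10582 in chondrocyte-like cells. Their part in these differences was not tested.

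Osteoblast-like cells differed less from mpMSC-like cells, and the direction for 4 members and the calls of 4 others rested on the scaling. With TMM, 5 of 10 genes were higher and 1 lower, where 20.4% and 19.9% of all genes were. *Pdk1* (2.08 ± 0.31 SE, edgeR adjusted p = 2.40e-05) was 4.22-fold higher and *Epas1* 5.30-fold lower (-2.41 ± 0.18, edgeR adjusted p = 3.40e-09), and both passed under every alternative run. *Pdk1* levels were close to those of free RNA in osteoblast-like cells and below them in mpMSC-like cells. *Aldoa* (0.70 ± 0.20), *Pgk1* (0.66 ± 0.15), *Ldha* (0.61 ± 0.18) and *Egln1* (0.48 ± 0.17) were higher with TMM but had differences of -0.06, -0.12, -0.15 and -0.30 when scaled by total UMIs alone, a scaling that puts the median of all genes at -0.84. With total UMIs 1 member was higher and 5 lower, since *Slc2a1* (-1.51, adjusted p = 0.00104), *Bnip3* (-1.12, adjusted p = 8.90e-05), *Egln3* (-2.47, adjusted p = 0.0138) and *Hif1a* (-0.82, adjusted p = 3.39e-04) then passed as lower. The share of all called genes that were higher was 50.7% with TMM and 10.2% with total UMIs. Osteoblast-like sums had the lowest TMM factors, 0.716, 0.698 and 0.557, and their 7 osteoblast markers alone reached 210402 CPM. Without metaphyseal replicate 1, 2 genes passed. *Ldha*, *Aldoa*, *Pgk1* and *Egln1* were the ones lost (adjusted p = 0.148, 0.154, 0.0542 and 0.208), and *Egln1* was also lost without *Pdgfra-GFP* (0.152). Without the library block the same 4 did not pass (adjusted p = 0.354, 0.263, 0.0983 and 0.630). For the comparisons of chondrocyte-like cells, total UMIs moved the share of calls that were higher from 46.7% to 74.0% against osteoblast-like and from 49.8% to 23.2% against mpMSC-like cells. The median of all genes was then 0.34 and -0.46, and the members' median 1.66 and 1.37.

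Between SC-like and mpMSC-like cells none of the 10 genes passed the test by edgeR or by DESeq2 (0 of 10 with each tool), where 3.22% of all genes were higher and 3.29% lower. At an unadjusted p under 0.05, 2 genes differed with each tool, *Egln3* and *Hif1a*. *Egln3* (2.19 ± 0.82 SE, edgeR adjusted p = 0.139) rests on 1, 1 and 6 UMIs in SC-like cells, and *Hif1a* had a difference of -0.51 ± 0.22 (edgeR adjusted p = 0.230). *Pgk1* (0.30 ± 0.18) and *Ldha* (0.07 ± 0.20) had small differences, and the median over the 10 genes was -0.08 beside -0.07 over all genes. *Pdk1* (-0.04 ± 0.64) and *Slc2a1* (-0.42 ± 0.62) were imprecise, with 1 to 7 and 0 to 6 UMIs per SC-like sum. The 0 of 10 is near the share of all genes and does not show that levels were equal. The 2 metaphyseal SC-like sums were the shallowest of all.

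The 2 stromal populations were told apart by *Epas1* and by a split within the sugar genes. dpMSC-like cells held 4 of 10 genes at a higher and 2 at a lower level than mpMSC-like cells, where 13.8% and 14.7% of all genes were. *Epas1* was 3.84-fold higher (1.94 ± 0.16 SE, edgeR adjusted p = 3.18e-08), *Slc2a1* 3.08-fold (1.63 ± 0.29, edgeR adjusted p = 2.30e-04), *Bnip3* 1.79-fold (0.84 ± 0.18) and *Aldoa* 1.68-fold (0.75 ± 0.20). *Pgk1* (-0.62 ± 0.15, edgeR adjusted p = 0.00368) and *Ldha* (-0.59 ± 0.18, edgeR adjusted p = 0.0180) were lower in 3 of 3 libraries. The median over the 10 genes, 0.04, lay beside 0.02 over all genes. *Slc2a1* did not pass without *Pdgfra-GFP* (0.80, adjusted p = 0.243), and its metaphyseal levels in both populations lay below those of free RNA. Without metaphyseal replicate 1, *Aldoa*, *Pgk1* and *Ldha* did not pass (adjusted p = 0.102, 0.0840 and 0.215), nor did *Ldha* without metaphyseal replicate 2 (0.148). Without the block, *Epas1* and *Slc2a1* were the 2 genes that passed.

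EC-like cells held *Pdk1*, *Slc2a1* and *Epas1* at higher levels than mpMSC-like cells. In all, 4 of 10 genes were higher and 1 lower, where 24.6% and 22.7% of all genes were, and the median was 0.39 beside 0.05. *Pdk1* was 6.43-fold (2.68 ± 0.31 SE, edgeR adjusted p = 4.67e-07), *Slc2a1* 5.79-fold (2.53 ± 0.30, edgeR adjusted p = 4.80e-07) and *Epas1* 4.42-fold higher (2.14 ± 0.17, edgeR adjusted p = 1.25e-09), and these 3 passed under every alternative run. *Pgk1* (0.40 ± 0.15, edgeR adjusted p = 0.0347) passed in 7 of 15 alternatives and with none of the libraries left out (adjusted p between 0.0552 and 0.196). *Bnip3* was lower (-0.81 ± 0.21, edgeR adjusted p = 0.00307), and not past the threshold without *Pdgfra-GFP* (0.142). Without the library block neither *Pgk1* nor *Bnip3* passed (adjusted p = 0.287 and 0.0995). *Ldha* had a difference of -0.30 ± 0.18 (edgeR adjusted p = 0.182) and passed without *Pdgfra-GFP* (-0.50, adjusted p = 0.00133). Of 6 haematopoietic markers, *Fcer1g* was at 345 ± 17.7 CPM (SD, n = 3) in EC-like cells, while the other 5, *Ptprc* (CD45) among them, averaged between 0.155 and 2.39.

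**Figure D2:**
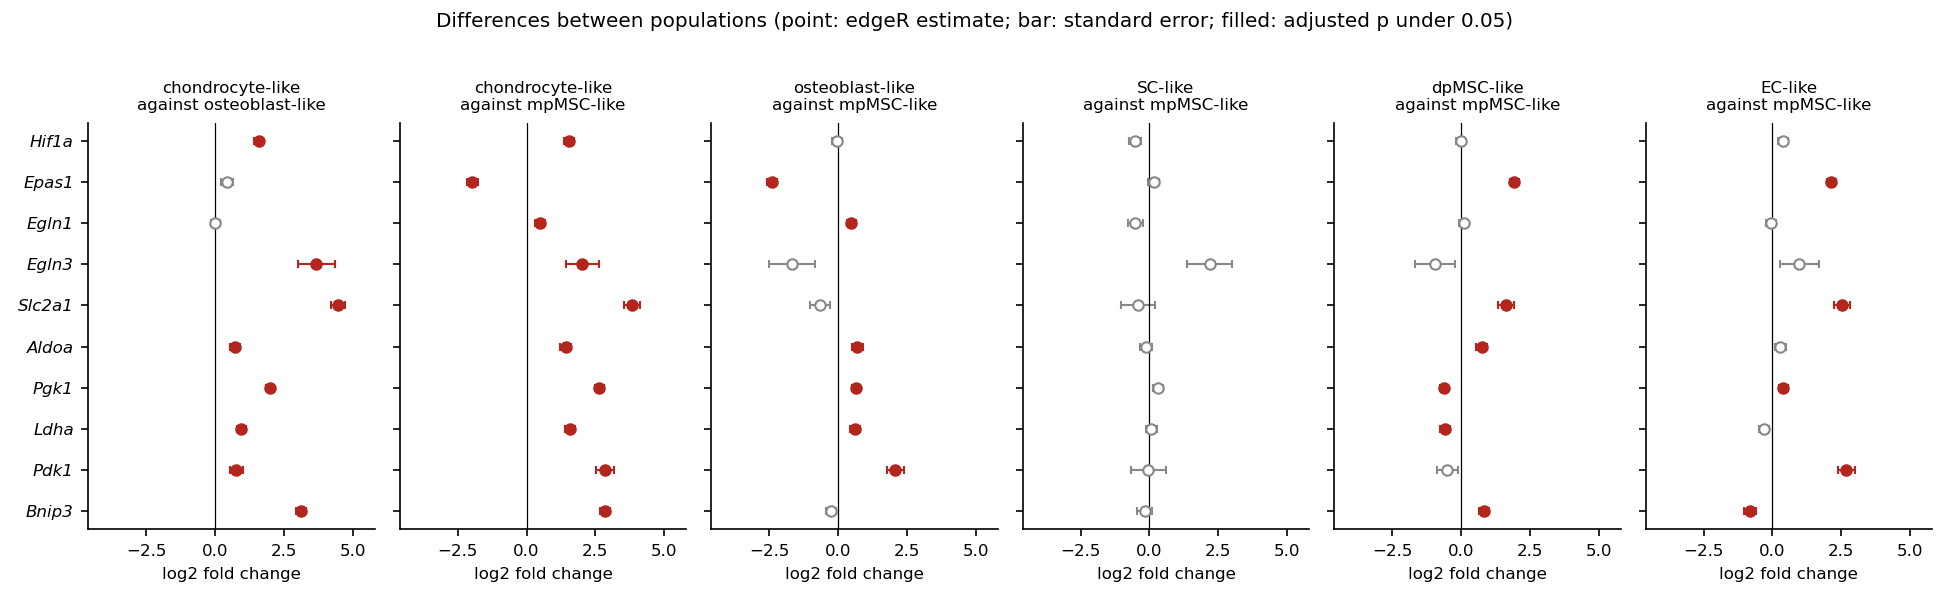
Log2 fold changes of the 10 genes (x axis) in the 6 comparisons between populations. Points are edgeR estimates, bars 1 standard error, and filled points passed an adjusted p of 0.05. The filled points of chondrocyte-like cells lie to the right, *Slc2a1* farthest at 4.48 and 3.84, except *Epas1* at -1.97 against mpMSC-like cells, and SC-like cells against mpMSC-like cells show no filled point.

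EC-like cells were divided further by markers into arterial (aEC-like, 80, 61 and 87 cells), metaphyseal (mpEC-like, 548, 431 and 96) and sinusoidal bone marrow endothelial cells (bmEC-like, 362, 297 and 75). Of the 10 genes, 8 passed the filter on low counts. *Egln3* and *Bnip3* did not. Sinusoidal cells were set apart by *Pdk1*, at 66.8, 71.9 and 74.9 CPM against 23.2, 24.7 and 11.3 in mpEC-like and 19.5, 18.3 and 18.0 in aEC-like cells. Arterial cells were set apart by *Epas1*, at 906, 980 and 872 against 405, 393 and 513 in bmEC-like and 302, 305 and 232 in mpEC-like cells. No value of one subtype reached into the range of another in the case of *Epas1*.

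mpEC-like cells held 3 of 8 genes at a higher and 4 at a lower level than bmEC-like cells, where 16.2% and 18.0% of the 7641 genes tested were. The glycolytic enzymes were higher, *Pgk1* by 0.51 ± 0.13 (SE, edgeR adjusted p = 0.00339), *Ldha* by 0.37 ± 0.12 (edgeR adjusted p = 0.0227) and *Aldoa* by 0.34 ± 0.11 (edgeR adjusted p = 0.0238). *Pdk1* was 3.07-fold lower (-1.62 ± 0.16, edgeR adjusted p = 3.42e-08), and *Epas1* (-0.58 ± 0.13), *Slc2a1* (-0.55, edgeR adjusted p = 0.0225) and *Hif1a* (-0.53 ± 0.11) were lower too. The median over the 8 genes was -0.41, beside -0.01 over all genes. Without metaphyseal replicate 1, the library with most of these cells, *Pgk1*, *Ldha*, *Aldoa*, *Hif1a* and *Slc2a1* did not pass (adjusted p = 0.0531, 0.154, 0.175, 0.0548 and 0.572). *Hif1a* and *Slc2a1* also failed to pass without metaphyseal replicate 2 (0.0731 and 0.0548). Without the block *Pdk1* was the 1 gene that passed.

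aEC-like cells held 4 of 8 genes at a higher and 2 at a lower level than bmEC-like cells, where 18.5% and 20.9% of all genes were. *Epas1* was 2.16-fold higher (1.11 ± 0.13 SE, edgeR adjusted p = 2.51e-07), and *Pgk1* (1.07, edgeR adjusted p = 4.55e-06), *Aldoa* (0.92, edgeR adjusted p = 2.52e-06) and *Ldha* (0.64, edgeR adjusted p = 4.99e-04) followed. *Pdk1* was lower (-1.86, edgeR adjusted p = 3.54e-06), as was *Hif1a* (-0.54, edgeR adjusted p = 0.00340), which did not pass without metaphyseal replicate 2 (0.0615). The median over the 8 genes was 0.42, beside -0.03 over all genes. Without the block, *Ldha* and *Hif1a* did not pass (adjusted p = 0.151 and 0.0874). In both subtypes the levels of the 3 enzymes were thus higher and that of *Pdk1* lower than in sinusoidal cells. These comparisons share the bmEC-like sums. In mpEC-like cells the enzymes did not pass without metaphyseal replicate 1 or without the block, and *Ldha* and *Aldoa* did not with DESeq2. *Pdk1* passed under every alternative run in both subtypes.

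**Figure D3:**
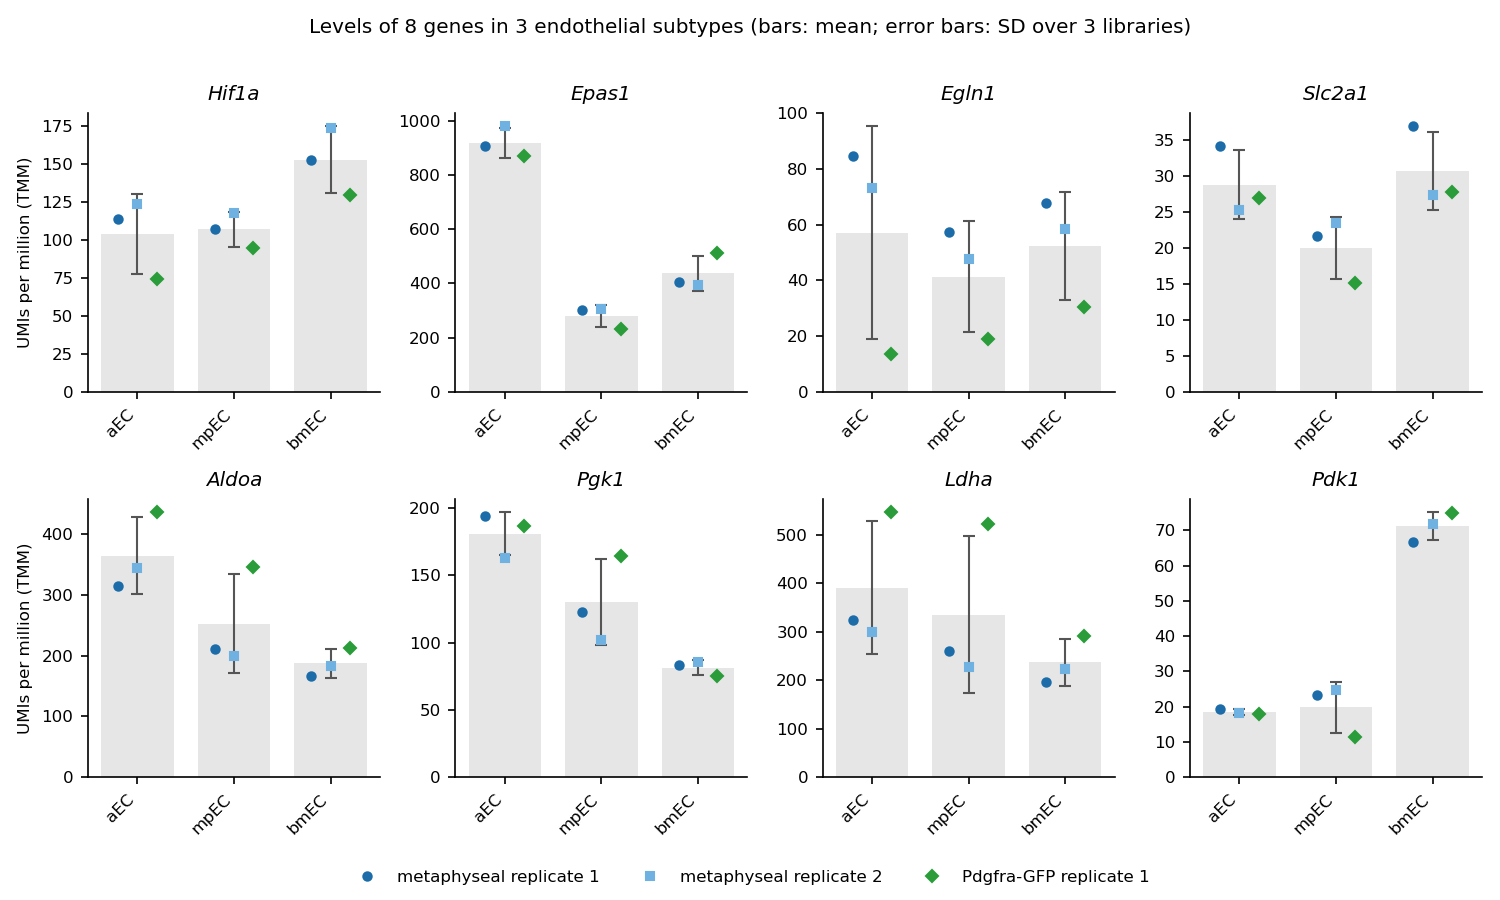
Levels of the 8 genes that passed the filter (CPM, TMM-scaled, y axis) in arterial (aEC), metaphyseal (mpEC) and sinusoidal (bmEC) endothelial cells (x axis). Bars show the mean, error bars the SD over 3 libraries, and points the libraries. *Epas1* was highest in arterial cells (872 to 980) and *Pdk1* in sinusoidal cells (66.8 to 74.9).

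Within cartilage, hypertrophic chondrocytes were separated from the other chondrocyte-like cells by *Col10a1*, *Ihh* and *Panx3*, giving 21, 17 and 174 cells. Of the 10 genes, 7 passed the filter on low counts, and 0 of 7 differed by edgeR and by DESeq2, also at an unadjusted p under 0.05, where 3.65% of 4167 genes were higher and 3.34% lower. *Bnip3* was at 67.3, 54.5 and 293 CPM in hypertrophic and 55.7, 72.8 and 83.4 in other chondrocytes (0.80 ± 0.42 SE, edgeR adjusted p = 0.335). The *Bnip3* value of 293 has an exact 95% Poisson interval of 271 to 317 for counting error, and the metaphyseal values, from 17 and 18 UMIs, have intervals of 39.2 to 108 and 32.3 to 86.2. *Slc2a1* went different ways, at 15.8, 30.3 and 69.8 in hypertrophic and 88.0, 60.3 and 43.4 in other chondrocytes, and passed as lower (-1.60, edgeR adjusted p = 0.00729) when *Pdgfra-GFP* was left out. Its metaphyseal values in hypertrophic cells rest on 4 and 10 UMIs. The median over the 7 genes was -0.20, beside -0.00 over all genes. *Egln3*, *Epas1* and *Pdk1* did not pass the filter. *Epas1* was at 31.7, 42.4 and 18.5 in hypertrophic and 8.80, 15.1 and 17.4 in other chondrocytes. Its metaphyseal values rest on 8 and 14 UMIs against 3 and 6. Their intervals overlapped, 13.7 to 62.4 against 1.81 to 25.7 and 23.2 to 71.2 against 5.53 to 32.8.

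Other genes of these pathways were counted in 4 lists: glycolysis (18 genes), known hypoxia targets (22, of which 21 were in the files), regulators of HIF (10) and oxidative metabolism (22). The counts are to be read beside the shares of all genes higher and lower that were given above for each comparison. In cartilage the glycolysis list was mostly higher, as the members were. Against osteoblast-like cells 12 of its 18 genes were higher in chondrocyte-like cells and 1 lower (median 1.12). Among genes with a mean of at least 20 CPM, *Pfkp* (3.71 ± 0.26 SE, edgeR adjusted p = 5.41e-10), a phosphofructokinase, and *Eno1* (2.17 ± 0.20, edgeR adjusted p = 3.17e-08), an enolase, were raised most. Against mpMSC-like cells 15 of 18 were higher and 2 lower (median 1.60), among them *Ldhb* (-0.67 ± 0.23, edgeR adjusted p = 0.0260), the lactate dehydrogenase subunit that favours lactate use. *Ldhb* did not pass without the library block (adjusted p = 0.280) or without metaphyseal replicate 1 or 2 (0.0856 and 0.178). In SC-like cells 1 of 18 was higher, the hexokinase *Hk2* (1.12 ± 0.33, edgeR adjusted p = 0.0435), in 2 of 3 libraries. That call was lost without the block (adjusted p = 0.738), without metaphyseal replicate 2 (0.272) and without *Pdgfra-GFP* (0.789). In osteoblast-like against mpMSC-like cells 7 were higher and 3 lower with TMM, and 3 higher and 9 lower with total UMIs. dpMSC-like cells had 2 higher and 5 lower, with the pyruvate kinase gene *Pkm* at 84.4 ± 23.2 against 231 ± 67.1 CPM (SD, n = 3). EC-like cells had 8 higher and 5 lower. The hexokinases went opposite ways there, *Hk1* at 40.8 ± 2.79 against 13.3 ± 3.83 and *Hk2* at 2.08 ± 0.710 against 26.9 ± 11.5.

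Among vessels, 11 glycolysis genes were tested, and 5 were higher and 2 lower in mpEC-like than in bmEC-like cells. In aEC-like cells 7 were higher and 3 lower. *Eno1* was higher in both (0.53 ± 0.11 and 1.13 ± 0.13 SE, edgeR adjusted p = 6.44e-04 and 2.20e-07). The monocarboxylate transporter gene *Slc16a1* was at 60.1 ± 8.37 in bmEC-like and 2.84 ± 0.824 CPM in mpEC-like cells (-4.28 ± 0.23, edgeR adjusted p = 1.07e-11). aEC-like cells held 0 UMIs of it in all 3 libraries, which, against 3 UMIs over the 3 sums (2.0 CPM), is at least 30-fold lower than in bmEC-like cells.

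Of the hypoxia targets, 20 were tested. In chondrocyte-like cells 10 were higher and 3 lower than in osteoblast-like cells (median 0.45), and 13 higher and 2 lower than in mpMSC-like cells (1.62). Among targets with a mean of at least 20 CPM, *Cox4i2* (3.53 ± 0.26 SE, edgeR adjusted p = 1.56e-09), a cytochrome c oxidase subunit, and *Ndufa4l2* (2.83 ± 0.32, edgeR adjusted p = 6.13e-07), a mitochondrial protein, led the first comparison. *Car12* (7.22 ± 0.51, edgeR adjusted p = 9.00e-10), a carbonic anhydrase, led the second among such targets. *Vldlr* and *Ndrg1* were lower in both. *Ndufa4l2* did not pass without the library block (adjusted p = 0.0535), nor did *Ndrg1* against mpMSC-like cells without *Pdgfra-GFP* (-0.92, adjusted p = 0.156). Osteoblast-like cells had 12 higher and 1 lower than mpMSC-like cells with TMM and 9 higher and 4 lower with total UMIs, and *P4ha1*, a collagen prolyl hydroxylase subunit, was at 376 ± 23.4 against 45.9 ± 7.44 CPM (SD, n = 3). dpMSC-like cells had 4 higher and 3 lower, with *Vegfa*, the vessel growth factor, at 91.5 ± 35.0 against 36.3 ± 14.1, a call lost without the block (adjusted p = 0.0512). EC-like cells had 5 higher and 9 lower, where 24.6% and 22.7% of all genes were. Among them *Ndrg1* was higher (3.47 ± 0.19, edgeR adjusted p = 1.61e-11) and *Vldlr* lower (-5.98 ± 0.24, edgeR adjusted p = 3.81e-13). In SC-like cells *Ndufa4l2* was higher (1.82 ± 0.47, edgeR adjusted p = 0.0220) and *Plod2*, a collagen lysyl hydroxylase, lower (-0.76 ± 0.21, edgeR adjusted p = 0.0326). Neither call of SC-like cells held without the block (adjusted p = 0.631 and 0.244), without metaphyseal replicate 1 (0.0791 and 0.0639) or without *Pdgfra-GFP* (0.0733 and 0.487), nor *Plod2* without metaphyseal replicate 2 (0.203) or with total UMIs (0.0577). In hypertrophic chondrocytes 2 of 13 tested were higher, *Vegfa* at 109 ± 57.9 against 21.0 ± 10.6 (2.34 ± 0.29, edgeR adjusted p = 0.00192) and *Vldlr* (2.48 ± 0.56, edgeR adjusted p = 0.0313), while *Pfkp* of the glycolysis list was lower (-1.39 ± 0.34, edgeR adjusted p = 0.0404). Without the block *Vegfa*, *Vldlr* and *Pfkp* did not pass between the zones (adjusted p = 0.0958, 0.118 and 0.136), and *Pfkp* did not without metaphyseal replicate 1 or 2 (0.0852 and 0.276).

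In mpEC-like and in aEC-like cells, 3 of 12 hypoxia targets tested were higher and 3 lower than in bmEC-like cells. Of all genes, 16.2% were higher and 18.0% lower in mpEC-like and 18.5% and 20.9% in aEC-like cells. The counts were near these shares. The list's median was -0.06 and -0.08, beside -0.01 and -0.03 over all genes. *Bhlhe40*, a transcriptional repressor, was lower than in bmEC-like cells in both subtypes (-1.04 ± 0.14 and -1.19 ± 0.20 SE, edgeR adjusted p = 3.54e-06 and 5.82e-05). *P4ha2* was higher in aEC-like cells (3.35 ± 0.36, edgeR adjusted p = 1.07e-07).

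Of the regulators of HIF, at most 3 of 9 tested genes were called in a comparison of populations with TMM. Where 3 were called, this was near the share of all genes. That share was 18.3% higher and 20.8% lower in chondrocyte-like against osteoblast-like cells. Against mpMSC-like cells it was 19.5% and 19.7% in chondrocyte-like, 20.4% and 19.9% in osteoblast-like and 13.8% and 14.7% in dpMSC-like cells. *Cited2*, which competes with the HIF α subunits for their coactivators, was at 421 ± 29.5 in dpMSC-like against 104 ± 10.2 CPM in mpMSC-like cells (edgeR adjusted p = 2.48e-04). It was lower in mpEC-like and aEC-like than in bmEC-like cells (-1.77 ± 0.15 and -1.69 ± 0.21, edgeR adjusted p = 3.60e-09 and 7.72e-07). *Egln2*, the prolyl hydroxylase PHD1, was lower in chondrocyte-like than in osteoblast-like cells (-0.60 ± 0.18, edgeR adjusted p = 0.0123). It did not pass with total UMIs (-0.23, adjusted p = 0.355), without the library block (adjusted p = 0.0585) or without metaphyseal replicate 1 or 2 (0.0711 and 0.0765). In that comparison 1 regulator was higher and 2 lower with TMM, and 2 higher and 0 lower with total UMIs. Osteoblast-like against mpMSC-like cells had 2 higher and 1 lower with TMM, and 0 higher and 6 lower with total UMIs. Chondrocyte-like against mpMSC-like cells had 1 higher and 2 lower with TMM, and 0 higher and 4 lower with total UMIs.

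For oxidative metabolism the counts depended on scaling in the comparisons with osteoblast-like cells. Chondrocyte-like cells had 0 of 22 higher and 14 lower than osteoblast-like cells with TMM, and 1 higher and 1 lower with total UMIs. The list's median was -0.57 with TMM and -0.18 with total UMIs, beside -0.04 and 0.34 over all genes. Osteoblast-like cells had 13 higher and 0 lower than mpMSC-like cells with TMM, and 0 higher and 9 lower with total UMIs. Here the list's median was 0.49 and -0.28, beside -0.02 and -0.84 over all genes, so it lay above all genes with both scalings. Chondrocyte-like against mpMSC-like cells gave 3 higher and 4 lower, or 1 and 13 with total UMIs. dpMSC-like cells had 0 higher and 8 lower with TMM and 0 and 3 with total UMIs, among them *Cox5a* (-0.67 ± 0.14 SE, edgeR adjusted p = 0.00103), which did not pass without the library block or without metaphyseal replicate 1 (adjusted p = 0.167 and 0.0729). In vessels 9 of 22 genes in mpEC-like and 8 of 22 in aEC-like cells were above bmEC-like cells and 0 below (medians 0.25 and 0.30), where 16.2% and 18.5% of all genes were higher, and the remaining 13 and 14 were not called. *Mdh2*, malate dehydrogenase, was at 203 ± 52.9 and 252 ± 70.7 against 133 ± 24.5 CPM (SD, n = 3), and its mpEC-like call was lost without the library block (adjusted p = 0.160). EC-like cells had 1 higher and 3 lower.

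**Figure D4:**
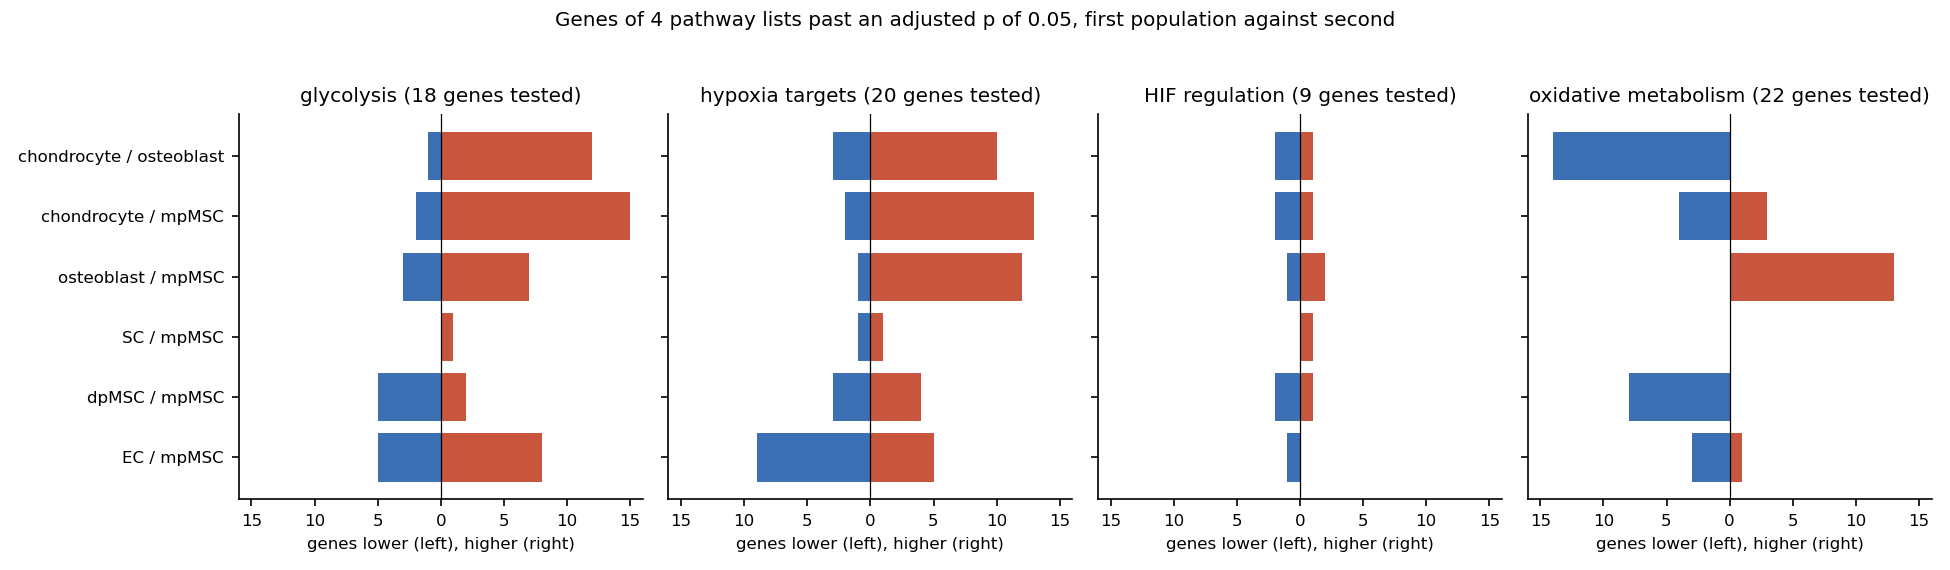
Number of genes of the 4 lists past an adjusted p of 0.05 (x axis, higher to the right and lower to the left of 0) in the 6 comparisons of populations (y axis), with TMM scaling. Glycolysis genes were mostly higher in chondrocyte-like cells (12 and 15 of 18). The bars for oxidative metabolism against osteoblast-like or mpMSC-like cells change with total UMI scaling, where the 13 higher genes of osteoblast-like cells become 0.

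The *Pdgfra-GFP* library stood apart from the metaphyseal libraries for several of the 10 genes within the same populations. *Egln1* was below both metaphyseal libraries in 6 of 6 populations, at 0.251 to 0.435 times their mean. *Ldha* (1.34 to 2.18 times), *Aldoa* (1.09 to 3.15), *Bnip3* (1.59 to 2.52) and *Pgk1* (1.05 to 1.71) were above both in 6 of 6. *Hif1a* and *Pdk1* were below both in 4 of 6, *Epas1* above both in 4 of 6 (0.914 to 1.44 times), and *Slc2a1* above both in 2 and below both in 2. Free RNA in near-empty barcodes, before TMM scaling, differed as well. *Egln1* was at 50.7 and 50.2 CPM in the metaphyseal libraries against 14.1 in *Pdgfra-GFP*. *Ldha* (251 and 231 against 601), *Aldoa* (250 and 248 against 439), *Bnip3* (11.6 and 16.4 against 51.3) and *Pgk1* (115 and 107 against 226) also differed in the direction of their population levels. *Epas1* did not, at 337 and 305 against 107. The libraries differed in other measures too: the median mitochondrial share of UMIs was 3.71%, 3.8% and 0.903%, and the 6 genes of handling stress summed to 2988, 2904 and 1424 in EC-like cells and 6242, 5572 and 1768 in osteoblast-like cells. The populations also differed in make-up: hypertrophic cells were 21 of 37, 17 of 36 and 174 of 1625 chondrocyte-like cells. Arterial cells, the subtype with most *Epas1*, were 80 of 1122, 61 of 890 and 87 of 311 EC-like cells. The *Pdgfra-GFP* library also held epiphysis and had a lower limit on genes per cell. With 1 sorted library from another mouse line, the region, the sort, the line, the cell handling, the cell filter and the library cannot be told apart. No test was run.

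**Figure D5:**
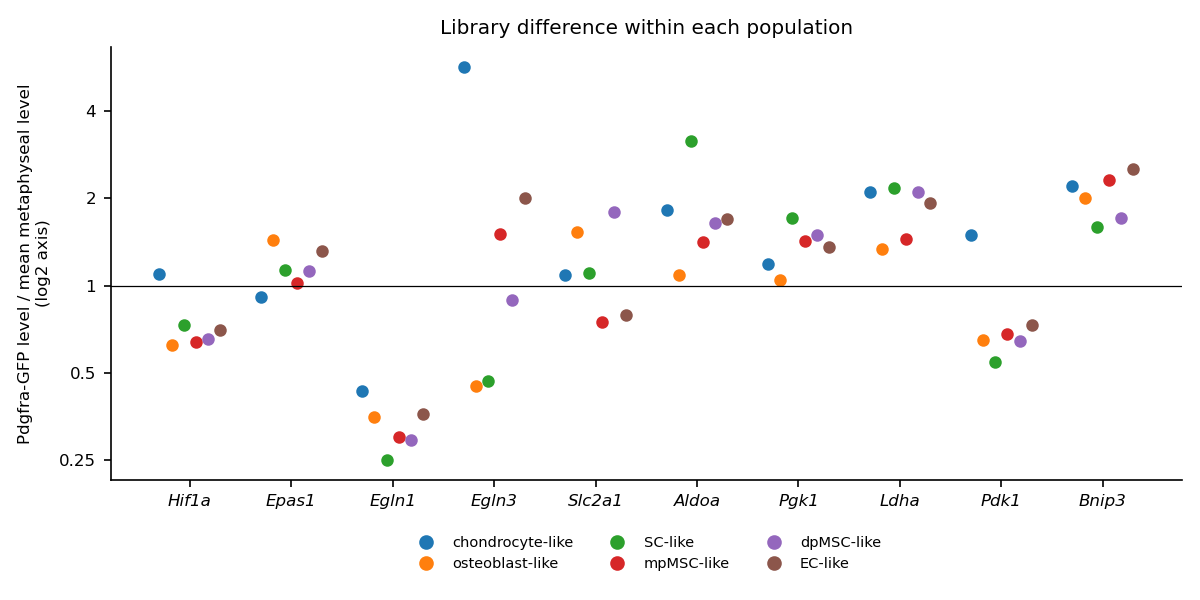
Level in the *Pdgfra-GFP* library divided by the mean of the 2 metaphyseal libraries (y axis, log2 axis) for each of the 10 genes (x axis) in each population (points). *Egln1* lies below 1 in all 6 populations, between 0.251 and 0.435, and *Ldha*, *Aldoa*, *Bnip3* and *Pgk1* lie above 1.

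The genes whose levels followed each member most closely over the 18 sums were sought among 6079 genes with a mean of at least 20 CPM. *Pgk1* was closest to *Pgam1* (Pearson r = 0.968), the next enzyme of glycolysis, and *Slc2a1* to *Nid2* (0.966). *Epas1* was closest to *Slfn5* (0.965) and then to *Elf1* and *Foxp1* (both 0.959), *Pdk1* to *Fosl2* (0.945), *Ldha* to *Anxa5* (0.942), *Bnip3* to *Comp* (0.934), *Hif1a* to *Anxa11* (0.927) and *Aldoa* to *Med31* (0.914). *Egln1* was closest to the mitochondrially encoded *mt-Nd5* (0.913) and *mt-Co1* (0.905), and the mitochondrial share of UMIs, like *Egln1*, was lower in the *Pdgfra-GFP* library. *Egln3*, the gene with fewest UMIs, reached only 0.695 (*Rabep1*). Among the members themselves *Pgk1* and *Ldha* were closest (r = 0.90), and *Epas1* and *Ldha* farthest apart (r = -0.67). These correlations describe 18 sums that share 3 libraries and differ in depth.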

How the data were processed

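Single-cell libraries of 2 metaphyseal and 1 Pdgfra-GFP sample were analysed from the raw, unfiltered UMI counts that the authors deposited. Per the labels and the study's methods, reads were filtered with fastp 0.20 and aligned and counted with STAR 2.7.3a (STARsolo) on mm10 with Gencode annotation. Gene positions given here come from a Gencode annotation of the same build.

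Kept cells had 1500 (metaphyseal) or 1000 (Pdgfra-GFP) genes or more, no more than 15% of UMIs from mitochondria and no more than 30% from ribosomal genes. EmptyDrops, used by the study, was not run. Scrublet (scanpy 1.11.5) called 25, 18 and 176 doublets, which were kept and removed in an alternative. Each cell was scored as the mean over a population's markers of log2(1 + UMIs per 10000), divided by the 90th percentile of cells with a UMI and capped at 1. It joined the population with the highest score if that was at least 0.3 and led by at least 0.05. These limits were set after comparing cell numbers and markers under several pairs of limits. The cells just inside and just outside the limits were 51 and 39 for chondrocyte-like, 96 and 101 for osteoblast-like, 184 and 178 for dpMSC-like and 13 and 17 for EC-like cells. For mpMSC-like cells they were 189 (11.3% of the population) and 186, and for SC-like cells 34 (14.2%) and 39, and tighter limits left SC-like cells of metaphyseal replicate 2 below the minimum of 10 cells. Populations rebuilt this way may differ from those of the study.

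A sum over the UMIs of each population's cells was made in every library holding 10 of them or more, and the sums were tested with edgeR 4.0.16 (glmQLFit, TMM, filterByExpr, library as a block, R 4.3.3) at an adjusted p of 0.05. All 6 populations shared 1 fit, as did the 3 vessel subtypes and the 2 cartilage zones. The block was part of the design, since sums of 1 library come from 1 preparation. Correlations of deviations between such sums were taken for each pair in each library. They exceeded 0.1 in 36 of 45 values for populations (0.0427 to 0.668), 9 of 9 for vessel subtypes and 3 of 3 for zones. Deviations were from the mean over the same 3 libraries, so the values of a pair are not independent. The zone test was added after cell numbers were seen. Scripts were checked on simulated counts.

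The 10 genes and all lists were chosen with earlier results of these data known. Of each pathway list, up to 2 called genes higher and 2 lower with the largest change and a mean of at least 20 CPM could be named, and the genes most like each member were the 3 with the highest Pearson r. Alternatives changed the scaling, the test (DESeq2 1.42.0), the filters, the gate, the block, the cells and the depth, and left out each library. Intervals are exact 95% Poisson intervals, and floors are 3 UMIs.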

Additional observations from a re-analysis of the deposited data

Results flagged for a closer look

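For 6 results the Pdgfra-GFP library moved one way and both metaphyseal libraries the other. The differences between libraries were not tested, and each rests on 1 Pdgfra-GFP library. All values are log2 differences of levels, given for Pdgfra-GFP, then metaphyseal replicates 1 and 2.

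*Egln1* was flagged in 3 comparisons. It was at 0.14, -0.33 and -0.01 between chondrocyte-like and osteoblast-like cells, at -1.10, 0.31 and 0.32 between aEC-like and bmEC-like cells, and at 0.45, -1.19 and -0.55 between hypertrophic and other chondrocytes. *Slc2a1* was at 0.67, -2.42 and -0.97 and *Pgk1* at 0.65, -0.10 and -1.23 between hypertrophic and other chondrocytes. *Aldoa* was at 0.35, -0.39 and -1.30 between SC-like and mpMSC-like cells. None of these 6 comparisons passed the edgeR test over the 3 libraries (adjusted p between 0.484 and 0.979).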

How the results depend on the processing

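Of the genes called among the 10 (8 in chondrocyte-like against osteoblast-like, 6 in osteoblast-like against mpMSC-like, 6 in dpMSC-like against mpMSC-like, 5 in EC-like against mpMSC-like, 7 in mpEC-like against bmEC-like cells), 5, 2, 2, 3 and 1 passed without the library block that pairs sums of 1 library. Thinned to 2000 UMIs per cell, with fewer cells, 3, 3 and 4 passed in the dpMSC-like, EC-like and mpEC-like comparisons. *Egln3* was then not tested in the dpMSC-like and EC-like comparisons, nor *Slc2a1* in the mpEC-like comparison. With the DESeq2 Wald test 4 passed in mpEC-like cells, and with cycling cells removed 1 passed between cartilage zones. Leaving out each library in turn gave 7 to 8 calls in chondrocyte-like against osteoblast-like, 8 to 10 against mpMSC-like, 2 to 6 in osteoblast-like, 0 to 0 in SC-like, 3 to 5 in dpMSC-like, 4 to 4 in EC-like, 2 to 7 in mpEC-like, 5 to 6 in aEC-like and 0 to 1 in the zone comparison, whose median over the members ran from -0.39 to 0.31. The lowest counts of the osteoblast-like (2), dpMSC-like (3) and mpEC-like (2) comparisons came without metaphyseal replicate 1. With total UMIs in place of TMM, osteoblast-like against mpMSC-like differences turned to -0.15 for *Ldha*, -0.06 for *Aldoa*, -0.30 for *Egln1*, -0.12 for *Pgk1*, -0.18 for *Eloc* and -0.16 for *Elob*. Over the members' single differences, 1138 values under an alternative kept direction and side of the threshold, 80 lost the threshold, 11 gained it and 4 reversed. Over the 86 differences of the other named pathway genes, 1136 values kept both, 140 lost the threshold and 2 reversed, and the losses were 34 without the block, 25 without metaphyseal replicate 1, 16 without metaphyseal replicate 2 and 6 without *Pdgfra-GFP*. Of the steps between neighbours in an order, examined after the data were seen, those of *Ldha* from osteoblast-like to SC-like (-0.32) and of *Bnip3* (-0.24) and *Pgk1* (-0.50) from osteoblast-like to EC-like cells turned with total UMIs. Without the block, genes called over all genes fell to 3357 from 5439 (chondrocyte-like against osteoblast-like), 3489 from 5446 (against mpMSC-like), 3225 from 5598 (osteoblast-like), 350 from 904 (SC-like), 1971 from 3966 (dpMSC-like), 1012 from 2613 (mpEC-like), 1820 from 3006 (aEC-like) and 40 from 291 (zones). With total UMIs, 9335 genes were called in osteoblast-like against mpMSC-like cells, and thinning left 0.0825 to 0.535 times the calls. The DESeq2 Wald test called 1581 genes in mpEC-like cells, and no filter on low counts 695 between zones. Over all genes, leaving out a library gave 302 to 543 calls in SC-like (without Pdgfra-GFP and without metaphyseal replicate 2), 3554 in chondrocyte-like against mpMSC-like (without Pdgfra-GFP), 2573 in dpMSC-like, 1346 in mpEC-like and 1989 in aEC-like cells (without metaphyseal replicate 1), 1431 in mpEC-like cells (without metaphyseal replicate 2), and 177 and 835 between zones (without metaphyseal replicate 2 and without Pdgfra-GFP). The causes were not tested. SC-like cells had 2 libraries left under the stricter gate, without cycling cells and with at least 2000 genes per cell.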
